A study of Mus musculus with 4 samples.

Results

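The Rab genes encode small GTPases that mark the membranes of the secretory and endocytic pathways, and their RNA was compared here between stem cells and non-stem cell epithelia of the mouse submandibular gland. Members were the non-control probes whose gene name on the array was Rab followed by a number and at most 1 letter from a to d, with the brightest probe standing for each gene. This gave 56 genes on 80 probes, out of 36163 gene names on the array. Both groups came from C57BL/6 mice aged 8 to 10 weeks and were sorted fresh by flow cytometry, with 2 one-colour arrays for stem cells and 2 for non-stem cell epithelia. No treatment, transgene or genotype is named for either group. No source used here gives the sort markers. Nor do the labels say if both arrays of a group had mice or sorts of their own, so p-values reflect the spread of these 4 arrays alone, and that spread may be technical.

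A Rab protein is switched on when an exchange factor loads it with GTP and switched off when a GTPase-activating protein makes it hydrolyse that GTP. In the GTP form it sits on one kind of membrane through a lipid tail and recruits effectors such as tethers, motors and coat adaptors. Salivary acinar and granular duct cells are filled with secretory granules, and in such exocrine cells Rab3d, Rab26 and the Rab27 proteins are known from granules, while Rab1, Rab2 and Rab6 proteins serve traffic between the endoplasmic reticulum (ER) and the Golgi.

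Levels are log2 signals relative to the 75th percentile of the array, so a value of 0 is a signal at that percentile, and a difference is the stem cell mean minus the non-stem mean. That percentile was a signal of 30.4 and 43.3 for stem cells, against 74.8 and 63.0 for the other group. In stem cells 35.7% and 39.0% of spots were well above background, against 42.3% and 41.9%, so detection itself differed by group. All 4 arrays lay on 1 slide and were scanned together. Across genes, the correlation was 0.986 and 0.992 within the groups and 0.923 to 0.935 between them. Of the cell type markers, 8 of 13 tested acinar genes were lower in stem cells and none higher (0 at an unadjusted p under 0.05 by limma), among them the water channel gene Aqp5 and Bhlha15, which encodes the secretory cell transcription factor Mist1. The summed acinar marker signal, in multiples of the array's 75th percentile, was 7484 to 8066 in stem cells and 12678 to 13434 in non-stem cell epithelia. Granular convoluted tubule markers were higher in 9 and lower in 1 of 13 tested, with sums of 2769 to 2774 against 599 to 615. In the other duct markers 7 of 10 and in the basal and myoepithelial markers 6 of 11 were higher. For all these marker counts, the shares over all genes tested were 14.2% higher and 16.8% lower.

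Stem cells had lower levels of 4 secretory granule Rabs, among them Rab3d and Rab26, and of 6 Rabs of the ER and Golgi, and higher levels of 5 Rabs led by Rab38. Of the 56 genes, 46 were above background on at least 2 arrays and were tested by limma, with p-values adjusted by Benjamini-Hochberg over the 17306 genes in the fit. Of these, 17 were lower in stem cells (37.0%, against 16.8% of all genes tested) and 5 were higher (10.9%, against 14.2%). The median difference was -0.35 over the tested Rab genes and -0.01 over all genes tested. On all 4 arrays 44 Rab genes were above background. Of these 15 were lower (34.1%, against 14.8% of the 14340 genes so measured) and 5 higher (11.4%, against 14.6%). The groups did not overlap for 37 of the 46, against 71.0% of all genes tested. Without non-stem cell epithelia replicate 1 the counts were 1 higher and 7 lower, and without replicate 2 they were 1 and 3. Over all genes they then were 1018 and 1200, and 700 and 921, from 2453 and 2907. The share of calls that were higher, 45.8% over all genes, was 25.2% with normexp background correction and 59.4% with the percentile taken over detected probes. For the Rab genes these settings gave 2 higher and 25 lower, and 7 and 15.

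**Figure D1:**
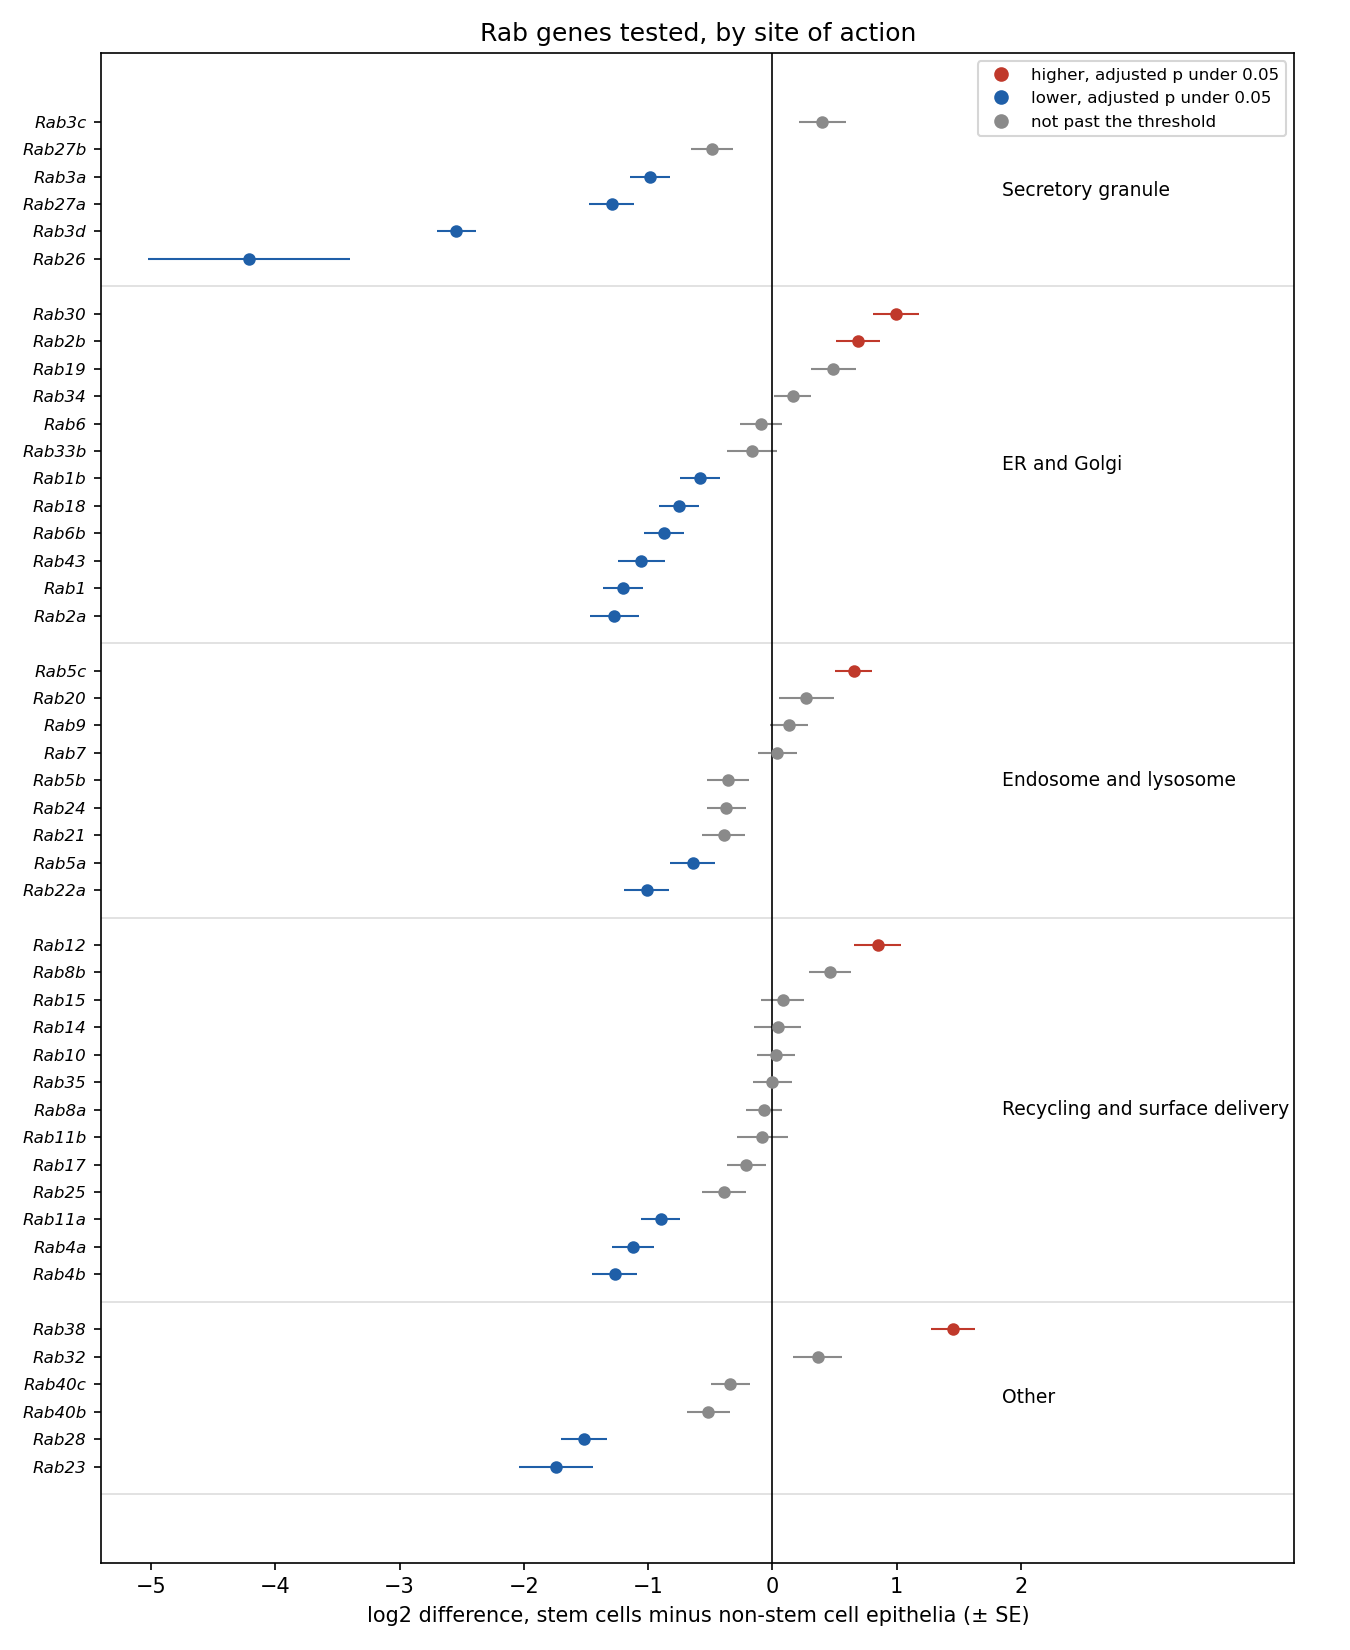
Log2 difference of each tested Rab gene (points, x axis, stem cells minus non-stem cell epithelia, bars are the standard error, n = 2 arrays per group), grouped by site of action. Lower calls reach down to -4.21 for Rab26 and -2.54 for Rab3d, and the highest point is Rab38 at 1.45.

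Secretory granule Rabs showed the lowest class median, -1.14 over 6 tested genes and -0.98 over the 5 measured on all 4 arrays. Of the 6, 4 were lower (66.7%, against 16.8% of all genes tested) and 0 higher (against 14.2%). At an unadjusted p under 0.05 by limma 0 were higher, though Rab3c passed as higher with an intensity trend and robust variances. Rab3d, the Rab3 form of exocrine zymogen granules, had levels of 2.32 and 2.41 in stem cells, against 4.83 and 4.99 in the other epithelia. Both stem cell arrays thus lay far below both others. Rab3d fell by 2.54 ± 0.16 (SE, n = 2 arrays per group, limma adjusted p = 0.00051), a 5.83-fold difference. A second Rab3d probe, at another place in the transcript, had a difference of -1.95. The Rab3d probe lies on chromosome 9 at 21713734 to 21713793 (mm9, minus strand), in a transcript named by the array design, and the files do not say whether this is coding or untranslated sequence.

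Rab26, which acts in the maturation of exocrine granules, stood at 1.79 and 2.08 in non-stem cell epithelia. In stem cells it was -0.95 on replicate 2 and -3.60 on replicate 1, where it was not well above background. The groups did not overlap, but only 1 stem cell array measured the gene. The fitted difference was -4.21 ± 0.81 (limma adjusted p = 0.015), and -2.88 without stem cells replicate 1, the array at background. With normexp it was -1.74. The Rab26 call was lost without either non-stem array (limma adjusted p = 0.089 and 0.12), with an intensity trend and robust variances (0.117) and with no filter (0.0706). The Rab26 probe maps to bases 24666408 to 24666467 of chromosome 17 (mm9, minus strand).

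Rab27a, which tethers granules at the plasma membrane through its effectors, was at -0.21 and 0.13 in stem cells, against 1.19 and 1.32 in the other epithelia. It fell by 1.29 ± 0.18 (adjusted p = 0.0061 by limma). Its close relative Rab27b, also a granule Rab, was at 3.0998 and 3.33 against 3.77 and 3.63, a difference of -0.48 ± 0.17 that did not pass (adjusted p = 0.082). A second Rab27b probe gave -0.50. With normexp the Rab27b difference passed, and over all alternatives run its adjusted p ranged from 0.0029 to 0.28.

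Rab3a, best known from synaptic vesicles, stood at 2.19 and 2.34 in stem cells, against 3.32 and 3.18 in the other epithelia. It fell by 0.98 ± 0.16 (limma adjusted p = 0.0093), and the groups did not overlap. Rab3c, another Rab3 form of nerve and endocrine cells, lay the other way at 2.85 and 2.64 against 2.51 and 2.18. Its difference of 0.40 ± 0.19 did not pass (adjusted p = 0.16 by limma). Another Rab3c probe gave 0.45, but it starts at base 2305 of the transcript against 2311. These probes largely overlap, so the value of 0.45 is not separate evidence. The remaining Rab3c probe, starting at base 8381, was above background on 0 arrays. Rab3b stayed at background on all 4 arrays. Rab37, known from mast cell granules, was above background on 1 non-stem array by its brightest probe and was not tested. A dimmer Rab37 probe was above background on 2 arrays with a difference of 0.12. Of the 7 mast cell markers on the array 5 were not well above background anywhere. Of the 2 tested, Tpsb2 was higher in stem cells and Mrgprb1 was at least 28.1-fold lower there. Acinar markers were lower and granular tubule markers higher in the same stem cell arrays, and their part in the granule Rab values was not tested. In sorted bulk samples fewer cells of a type and less RNA per cell cannot be told apart.

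**Figure D2:**
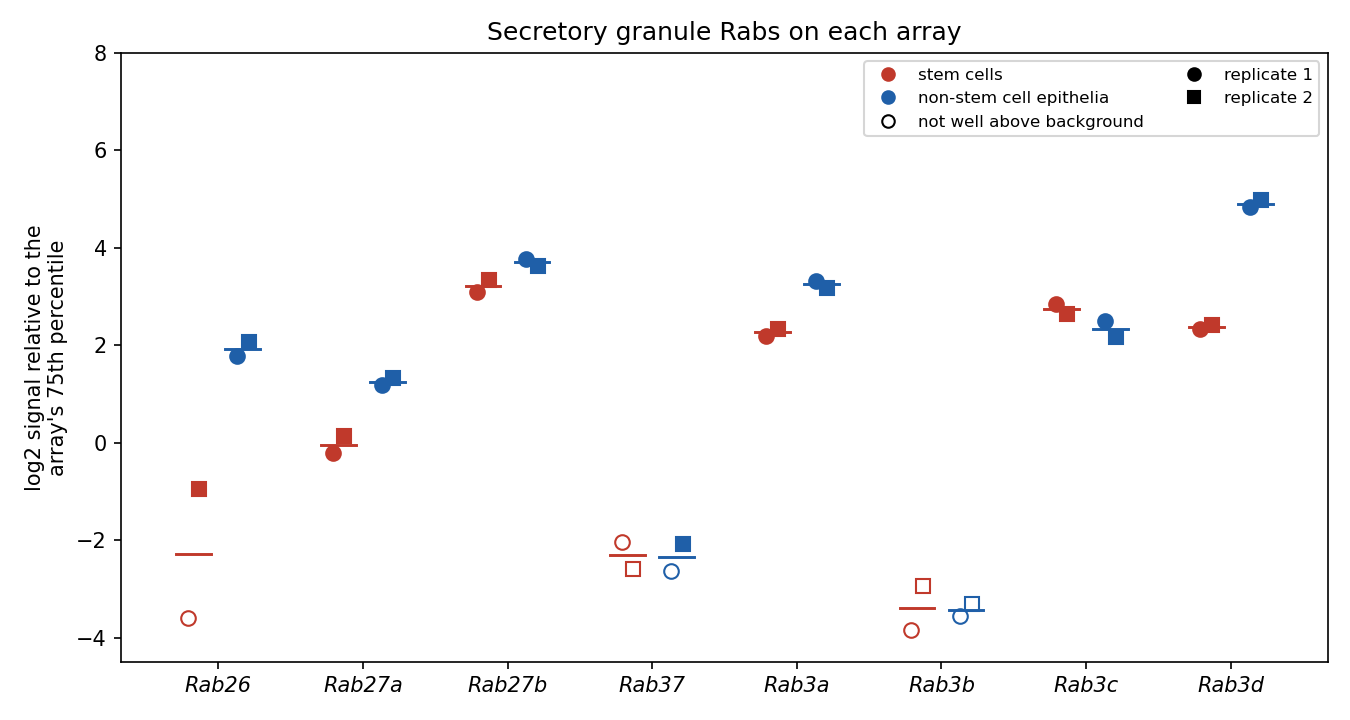
Log2 signal of the 8 secretory granule Rabs on each array relative to the array's 75th percentile (y axis), with circles for replicate 1, squares for replicate 2, a line for the group mean and open symbols where the probe was not well above background. Rab3d stands at 2.32 and 2.41 in stem cells against 4.83 and 4.99, and Rab26 is open on stem cells replicate 1.

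Promoter sequence is shown for Rab3d, as the granule Rab with the largest fall measured on all 4 arrays, and for Rab27a, whose second start was the only Rab promoter that held the letters CATATG. That hexamer and CAGCTG are E-boxes, the sites read by bHLH factors such as Mist1, for which Rab3d and Rab26 are known target genes. Both sequences are the 250 bases before a RefSeq start on GRCm38.p6, at chr9:21918184-21918433 (minus strand) for Rab3d and chr9:73063898-73064147 (plus strand) for Rab27a. Capitals mark, on either strand, these 2 hexamers, the E-box CACGTG, the CRE letters TGACGT, the CCAAT box, and the GC box GGGCGG.
Rab3d: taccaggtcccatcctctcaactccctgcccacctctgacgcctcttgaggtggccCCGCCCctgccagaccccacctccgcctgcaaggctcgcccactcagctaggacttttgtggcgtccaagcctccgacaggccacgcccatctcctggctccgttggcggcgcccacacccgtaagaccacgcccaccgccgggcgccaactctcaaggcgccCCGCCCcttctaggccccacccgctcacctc
Rab27a: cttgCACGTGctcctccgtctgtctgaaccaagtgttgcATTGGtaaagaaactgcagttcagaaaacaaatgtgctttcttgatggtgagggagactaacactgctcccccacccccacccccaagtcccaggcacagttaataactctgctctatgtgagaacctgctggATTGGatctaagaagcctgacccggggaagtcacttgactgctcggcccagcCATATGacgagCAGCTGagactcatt
In Rab27a the CATATG began 26 bases and the CAGCTG 15 bases before the start. The Rab3d stretch held GGGCGG matches only, at 194 and 31 bases. Rab26 is not in the promoter table. The table named 46 of the 56 Rab genes, 8 of them with several starts. A gene was counted where any of its starts held the letters, as Rab27a held GGGCGG only at the start not shown. CG pairs were likewise taken from the start with the most. CATATG was in 1 of these 46 (2.17%, against 3.98% of the 27025 genes of the table), CAGCTG in 9 (19.6% against 14.7%) and CACGTG, which MiT and Myc family factors read, in 5 (10.9% against 6.86%). GGGCGG, the GC box, was in 35 (76.1% against 35.4%) and was present in 13 of 13 lower, 3 of 3 higher, 14 of 23 not called and 5 of 7 untested Rab genes. The median number of CG pairs was 18.5 in Rab promoters and 6 over all genes, and the GC box is itself made of those letters. CCAAT was in 24 (52.2% against 37.5%), and TGACGT, a part of the CRE site, in 7 (15.2% against 7.29%). A match is a string of letters and not a site shown to be bound.

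Among the Rabs of the ER and Golgi, 6 of 12 tested were lower and 2 higher, with a median of -0.37. These were 50% and 16.7%, against 16.8% and 14.2% of all genes tested. Rab2a, which acts between the ER and the Golgi, was at 1.89 and 2.19 in stem cells, against 3.15 and 3.47 in the other epithelia. Its fall was by 1.27 ± 0.20 (limma adjusted p = 0.0080). Rab1 (Rab1a in RefSeq), which brings ER vesicles to the Golgi, was at 4.21 and 4.36 against 5.56 and 5.41 and fell by 1.20 ± 0.16 (limma adjusted p = 0.0051). Rab1b, its near relative, was at 3.55 and 3.72 against 4.29 and 4.16. This fall by 0.59 ± 0.16 was just past the threshold (limma adjusted p = 0.043) and was lost under 8 of 15 alternatives, among them quantile normalization, the percentile over detected probes and the replicate block. In each of these genes both stem cell arrays lay below both others.

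Rab43, a Rab of ER to Golgi traffic, was at 3.52 and 3.78 in stem cells, against 4.86 and 4.56 in the other epithelia, and fell by 1.06 ± 0.19. Rab6b, an isoform of the Golgi Rab Rab6, fell by 0.87 ± 0.16 from 1.77 and 1.59 to 0.75 and 0.87. Rab18, found on the ER and on lipid droplets, was at 2.54 and 2.73 against 3.40 and 3.36 and fell by 0.75 ± 0.16. The groups of all 3 were apart. Rab6 itself (Rab6a in RefSeq), the main retrograde Golgi Rab, did not pass, at 3.89 and 4.07 against 4.16 and 3.98. Rab33b, a Golgi Rab that binds an autophagy protein, had a difference of -0.16 ± 0.20, and in both genes the groups overlapped.

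The 2 higher genes of this class were Rab30 and Rab2b. Rab30, needed for Golgi structure, was at -1.25 and -1.002 in stem cells, against -2.26 and -1.99 in the other epithelia, low signals that were above background on all 4 arrays. It rose by 1.00 ± 0.18 (limma adjusted p = 0.014), with differences from 0.39 to 1.19 over the alternatives run. Rab2b, the relative of Rab2a, was at 0.45 and 0.76 against -0.14 and -0.03 and rose by 0.69 ± 0.18 (limma adjusted p = 0.037). Both groups of each were apart. Rab19 had a difference of 0.49 ± 0.18 and Rab34, which also serves the cilium, 0.16 ± 0.15. Rab33a and Rab36 stayed at background on all 4 arrays. The call of Rab2b was lost under 6 of 15 alternatives, among them normexp and the removal of either non-stem array. With normexp Rab6 passed as lower.

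Early endosome Rabs split by isoform. Rab5a, which drives fusion of early endosomes, was at 2.64 and 2.99 in stem cells, against 3.43 and 3.48 in the other epithelia and fell by 0.64 ± 0.18 (limma adjusted p = 0.047). Rab5c was at 3.30 on both stem cell arrays against 2.61 and 2.68 and rose by 0.65 ± 0.15 (limma adjusted p = 0.025). In both the groups were apart, in opposite directions. Rab5b was at 3.39 and 3.60 against 3.92 and 3.78, a difference of -0.36 ± 0.17 that did not pass, and its 4 tested probes ranged from -1.09 to -0.04. A second Rab5a probe gave -0.81. The call of Rab5a was lost under 9 of 15 alternatives, among them quantile normalization and the percentile over detected probes. That of Rab5c was lost under 4, among them normexp and the removal of either non-stem array.

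The starts of Rab5a and Rab5c are shown because these isoforms moved apart. They are the 250 bases before the RefSeq start on GRCm38.p6, at chr17:53478984-53479233 (plus strand) and chr11:100738216-100738465 (minus strand), with the same motifs in capitals.
Rab5a: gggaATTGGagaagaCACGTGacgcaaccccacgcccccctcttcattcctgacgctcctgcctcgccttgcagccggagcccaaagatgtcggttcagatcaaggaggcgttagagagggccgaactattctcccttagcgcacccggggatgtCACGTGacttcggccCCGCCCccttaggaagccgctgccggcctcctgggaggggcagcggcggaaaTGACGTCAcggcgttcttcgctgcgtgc
Rab5c: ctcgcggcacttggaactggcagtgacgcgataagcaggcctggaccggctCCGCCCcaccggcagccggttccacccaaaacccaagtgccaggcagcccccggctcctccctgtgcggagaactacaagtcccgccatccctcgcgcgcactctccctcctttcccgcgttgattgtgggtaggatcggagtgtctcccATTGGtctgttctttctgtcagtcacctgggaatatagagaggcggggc
Rab5a held CACGTG at 235 and 95 bases before the start and TGACGT on both strands, overlapping, at 28 and 26 bases, the palindromic CRE. Rab5c held neither of these. Both held CCAAT in reverse, at 246 bases in Rab5a and 49 in Rab5c, and GGGCGG in reverse, at 80 and 199 bases.

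Over the class of endosome and lysosome Rabs 1 of 9 tested was higher (11.1%, against 14.2% of all genes tested). In this class 2 were lower (22.2%, against 16.8%), and the median was -0.36. Rab22a, of early and recycling endosomes, was at 0.90 and 0.79 in stem cells, against 1.70 and 2.01 in the other epithelia and fell by 1.01 ± 0.18 (limma adjusted p = 0.012). Rab7, the late endosome Rab, was at 1.98 and 2.11 against 1.95 and 2.07, a difference of 0.04 ± 0.16. Rab9, which returns receptors from late endosomes to the Golgi, differed by 0.13 ± 0.15, and its 3 probes lay between 0.01 and 0.13. Rab21, which carries integrins, had -0.39 ± 0.17, Rab24, linked to autophagy, -0.37 ± 0.15, and Rab20 0.27 ± 0.22. Of the genes named after Rab22a none passed. Rab31, Rab9b, Rab39 and Rab39b stayed at background on all 4 arrays.

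Of 13 tested Rabs of recycling and polarised surface delivery, 3 were lower and 1 higher. These were 23.1% and 7.69%, against 16.8% and 14.2% of all genes tested. The class median of -0.07 turned to 0.04 with quantile normalization and to 0.07 with the percentile over detected probes. With equal medians of the tested genes it was 0.02. Both Rab4 genes, of the fast recycling route, were lower. Rab4b was at -0.22 and -0.20 in stem cells, against 0.88 and 1.23 in the other epithelia and fell by 1.27 ± 0.18 (limma adjusted p = 0.0062). Rab4a was at 4.08 and 4.37 against 5.37 and 5.33 and fell by 1.12 ± 0.17 (limma adjusted p = 0.0076), with -0.70 from a second probe. Both stem cell arrays were below both others in each. Rab11a, of the slow recycling endosome, was at 1.38 and 1.39 against 2.20 and 2.37 and fell by 0.90 ± 0.16 (limma adjusted p = 0.011).

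Its relatives did not pass. Rab11b was at 3.33 and 3.17 in stem cells, against 3.11 and 3.55 in the other epithelia. Rab25, the epithelial Rab11 form, was at 3.18 and 3.18 against 3.40 and 3.74, a difference of -0.39 ± 0.18. Rab12, which sends receptors from recycling endosomes to lysosomes, was the higher one, at 3.07 and 2.98 against 2.37 and 1.99, and rose by 0.85 ± 0.19 (limma adjusted p = 0.024). Its call was lost under 5 of 15 alternatives, among them normexp and the removal of either non-stem array. Rab17, of apical recycling in epithelia, had -0.21 ± 0.16, Rab8b, of surface delivery, 0.47 ± 0.17 and its relative Rab8a -0.07 ± 0.15, though a second Rab8a probe gave -0.89. Rab10, Rab14, Rab15 and Rab35 had differences between -0.00089 and 0.08. For Rab15 a second probe gave -0.41, and for Rab10 -0.22. Rab13, the Rab of tight junction traffic, stayed at background on all 4 arrays.

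Rab38 had the highest difference among the tested Rabs. This Rab of melanosomes and other lysosome-related organelles was at 1.35 and 1.19 in stem cells, against -0.03 and -0.34 in the other epithelia. Both stem cell arrays were above both others, and it rose by 1.45 ± 0.18 (limma adjusted p = 0.0040), a 2.74-fold difference. The call was kept under each alternative with both arrays of each group, with limma adjusted p up to 0.049. Over all alternatives run the difference lay between 0.64 and 1.61. The Rab38 probe is on chromosome 7 at 95639879 to 95639938 (mm9, plus strand). A second Rab38 probe, starting at base 1410 of the transcript against 1373, was above background on 0 arrays and entered none of these alternatives. The sister gene Rab32 was at -0.50 and -0.57 against -0.69 and -1.11 and did not pass (0.36 ± 0.20).

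Rab28 and Rab23 were the lower genes among the 6 tested Rabs outside the 4 main classes. Rab28, of the ciliary membrane, was at -1.004 and -0.86 in stem cells, against 0.42 and 0.75 in the other epithelia. It fell by 1.52 ± 0.18 (limma adjusted p = 0.0038). This call was kept under each alternative with both arrays of each group, though averaging probes could not change its value. Rab23, which restrains Hedgehog signalling, was at -1.69 and -1.55 in non-stem cell epithelia and was not well above background on either stem cell array. It was at least 1.59-fold lower in stem cells, a bound set against the lowest signal above background there. The fit, which is not a test of the bound, gave -1.74 ± 0.30 (limma adjusted p = 0.011), and 0.03 with normexp. Rab40b and Rab40c, which join ubiquitin ligases through a SOCS box, had -0.51 ± 0.17 and -0.34 ± 0.16 and did not pass. Rab44 stayed at background on all 4 arrays.

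A ratio of related Rab genes within an array is not moved by a constant shift of that array's log2 signals, though quantile normalization and background correction can move it. The log2 ratio of Rab3d to Rab3c was -0.52 and -0.23 in stem cells, against 2.32 and 2.81 in the other epithelia, a shift of -2.95. For Rab2a over Rab2b it was 1.44 and 1.43 against 3.30 and 3.50, a shift of -1.96. Rab3d over Rab3a shifted by -1.56, Rab5a over Rab5c by -1.30 and Rab38 over Rab32 by 1.09. In each of these pairs the arrays of the groups were apart. Rab38 over Rab32 shifted by 1.19 with quantile normalization and by 0.45 with normexp. Rab11a over Rab11b shifted by -0.82, Rab27a over Rab27b by -0.81, Rab6b over Rab6 by -0.78 and Rab1 over Rab1b by -0.61. For Rab4a over Rab4b the shift was 0.15 and for Rab40b over Rab40c -0.18, and in both pairs the groups overlapped. With normexp Rab27a over Rab27b shifted by 0.014, Rab4a over Rab4b by -0.76 and Rab40b over Rab40c by 0.35, and Rab6b over Rab6 by -0.24. The shifts are descriptions of 2 arrays against 2 and were not tested.

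**Figure D3:**
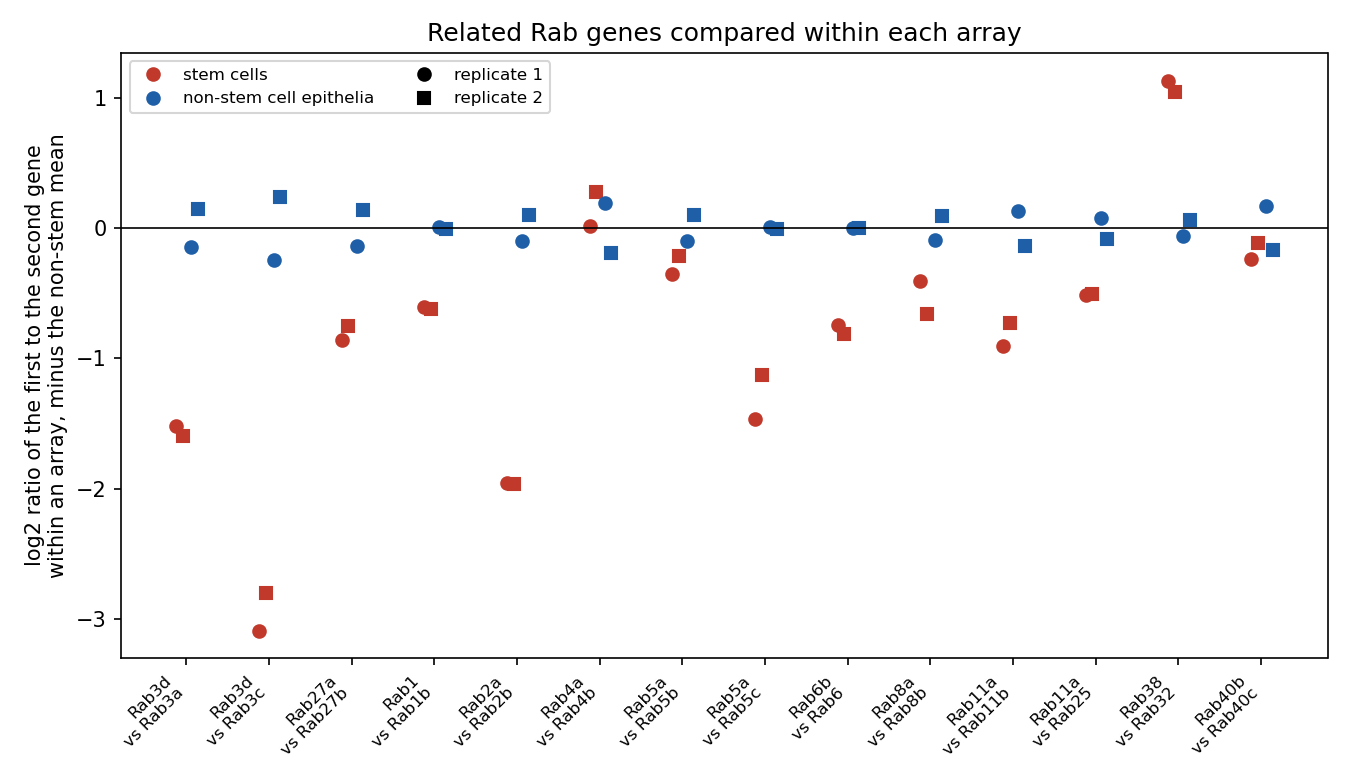
Log2 ratio of related Rab genes within each array, minus the mean of the non-stem arrays (y axis), for 14 pairs (x axis), with red for stem cells, blue for non-stem cell epithelia, circles for replicate 1 and squares for replicate 2. Rab3d against Rab3c stands lowest in stem cells and Rab38 against Rab32 highest.

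The genes that load, switch and read Rabs were lower more often than higher. Over 124 tested genes of 6 lists, 39 were lower (31.5%, against 16.8% of all genes tested) and 13 higher (10.5%, against 14.2%). Their median was -0.33. Of the 124, 102 were above background on all 4 arrays, with a median of -0.32, against 0.03 over the 14340 genes so measured. The rest, some at background throughout a group, are in these counts. Without non-stem cell epithelia replicate 1 the counts were 17 and 5, and without replicate 2 they were 15 and 2. Golgi effectors were lower in 10 of 13, with a median of -0.91. Gorasp2 and Gorasp1, the stacking proteins of the Golgi, fell by 1.94 ± 0.21 and 1.81 ± 0.22. Uso1, the p115 tether that binds Rab1, was at 3.06 and 2.90 in stem cells, against 4.31 and 4.27 in the other epithelia and fell by 1.31 ± 0.16. The golgin gene Gcc2 fell by 1.57 ± 0.16. The 1 higher member was Kif20a, a kinesin that binds Rab6 and also works in cell division, which was not above background on either non-stem array and at least 3.78-fold higher in stem cells.

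Effectors of granule exocytosis went both ways, with 4 of 12 lower and 3 higher and a median of -0.44. These were 33.3% and 25%, against 16.8% and 14.2% of all genes tested. Myrip, which links Rab27a to myosin, was at 1.01 and 0.94 in non-stem cell epithelia and at -1.31 and -1.78 in stem cells, where 1 array was above background, and fell by 2.52 ± 0.21. Myo5c, a myosin of exocrine granules, fell by 0.97 ± 0.16, and the Rab27 effector genes Sytl1 and Sytl3 fell by 0.91 ± 0.16 and 0.78 ± 0.16. Rims1, a Rab3 effector of the active zone, was higher by 2.25 ± 0.41, though its stem cell levels were 0.60 and -0.66. Rph3al, which encodes the Rab3 and Rab27 effector Noc2, rose by 1.38 ± 0.24. Sytl5, above background on neither non-stem array, was higher in stem cells by at least 2.74-fold.

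GTPase-activating proteins were lower in 10 of 33 (30.3%, against 16.8% of all genes tested) and higher in 3 (9.09%, against 14.2%). Tbc1d16 and Sgsm1 were above background on neither stem cell array and were at least 10.3-fold and 6.02-fold lower there. Sgsm3 fell by 2.14 ± 0.18 and Tbc1d30 by 2.07 ± 0.16, while Rabgap1 rose by 1.66 ± 0.27, Evi5l by 0.92 ± 0.16 and Tbc1d1 by 0.83 ± 0.17. Of 28 exchange factors 7 were lower (25%) and 1 higher (3.57%). Mon1a, of the complex that loads Rab7, fell by 1.29 ± 0.16 and the TRAPP subunit gene Trappc3 by 0.85 ± 0.17. Trappc2 and Dennd3 were at least 1.36-fold and 1.84-fold lower, and Als2cl rose by 0.58 ± 0.16. Of 9 factors of prenylation and membrane recycling 3 were lower (33.3%) and 1 higher (11.1%). Rabggtb, a subunit of the enzyme that adds the lipid tail, fell by 0.74 ± 0.17, Rabac1 by 0.80 ± 0.15 and Rabif by 1.00 ± 0.27, while Chml, an escort protein for new Rabs, rose by 0.94 ± 0.26.

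Endosome effectors were near the background, with 5 of 29 lower (17.2%) and 4 higher (13.8%) and a median of -0.06. Appl2, which binds Rab5, fell by 1.54 ± 0.19, Vps39 and Vps8, of the tethers of late and early endosomes, fell by 1.19 ± 0.22 and 0.78 ± 0.18, and Rilpl2 fell by 0.72 ± 0.16. Ehbp1 and Mical3 rose by 1.31 ± 0.24 and 1.28 ± 0.19, Micall2, which binds Rab13, by 1.25 ± 0.18 and the Rab7 effector gene Rilp by 0.60 ± 0.15. Adjusted p-values of the genes named in these lists, by limma, ran from 0.00099 for Tbc1d30 to 0.043 for Als2cl. For Sgsm1, Tbc1d16, Dennd3, Trappc2, Kif20a and Sytl5, at background throughout a group, the fit is not a test of the bound.

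**Figure D4:**
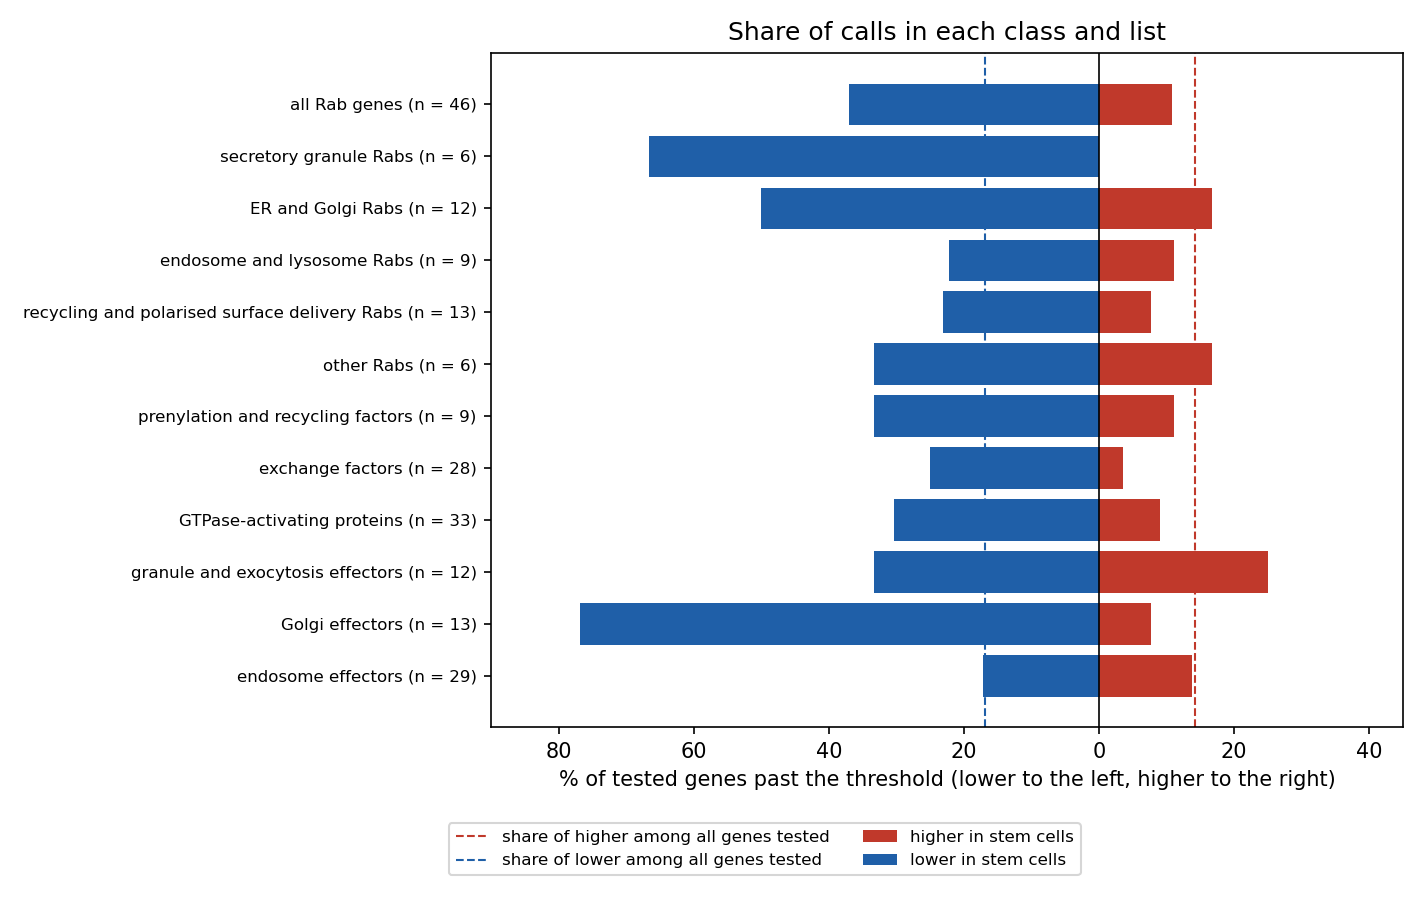
Share of tested genes past the threshold in each Rab class and list of Rab machinery (x axis in percent, lower in stem cells to the left in blue, higher to the right in red, number tested in brackets), with dashed lines at the shares among all genes tested. Golgi effectors reach 76.9% lower and secretory granule Rabs 66.7%, against 16.8% of all genes.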

How the data were processed

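RNA of sorted cells was measured on 4 one-colour Agilent arrays, 2 per group. Per the labels' protocols, total RNA was purified on columns that included a DNase digestion, and linear amplification gave Cy3-labelled cRNA. The deposited scanner files hold background-subtracted spot intensity, made with Agilent Feature Extraction 10.7.3.1 per the file headers (9.1 per the submitters' processing notes), on a design with mm9 coordinates. The authors' deposited series table holds log2 values. Its column-to-column differences had a correlation of 1 with the same differences in the scanner files, so scale and direction are settled, while the baseline of each probe stays unknown. Its column medians were -0.27 and -0.55 (stem cells) and -0.83 and -0.75 (non-stem cell epithelia).

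Control spots and outlier spots (2 among the Rab spots) were dropped. Log2 signals of repeat spots were averaged by probe, and the array's 75th percentile, over its non-control probes, was then subtracted. No Rab probe was saturated. A gene was tested where its brightest probe was well above background on at least 2 arrays. Groups were compared by limma 3.58.1 in R 4.3.3 (lmFit, eBayes, two-sided, 5.55 degrees of freedom, threshold 0.05). The fit was also run on simulated data whose noise was drawn from its own variance model. That run checks the code and cannot show that the model suits these arrays. The number of arrays limits the precision. Where no array of a group was above background, the fold is a bound, the brighter mean over the mean of the higher of the probe's signal and the lowest signal above background. RefSeq accessions of GRCm38.p6 matched 54 Rab genes, 2 of them under another symbol. More than 1 probe could be tested for 14 Rab genes, and in Rab6, Rab10 and Rab15 the probes differed in sign, by at most 0.49.

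The Rab genes, the classes and the lists were chosen with earlier results of these data known. From each machinery list the up to 4 genes of smallest p in each direction were named. Marker lists of acinar, granular tubule, duct, basal, endothelial, immune, fibroblast, mast and erythroid cells were counted the same way. Of endothelial markers 5 of 7 tested were higher, with Cdh5, Tie1, Emcn and Esam not well above background on any array. Of immune markers 1 of 5 and of fibroblast markers 1 of 2 were higher, while Ptprc and Col1a1 were not well above background anywhere. Mast cell markers gave 1 higher and 1 lower of 2 tested, and erythroid markers 5 lower of 5. Over all genes tested 14.2% were higher and 16.8% lower, so the immune share of 20% was near that. Alternatives were quantile normalization, the percentile over detected probes, normexp with an offset of 50, the deposited values, the replicate block, averaging all probes per gene, no filter, requiring signal on all 4 arrays, robust variances with an intensity trend, and leaving out each array. Equal medians of the tested genes and a crossed block were added after the data were seen.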

Additional observations from a re-analysis of the deposited data

How the results depend on the processing

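With normexp background correction there were 2 higher Rab genes, and 1596 higher and 4730 lower over all genes. The median log2 difference of secretory granule Rabs was then -0.996, the medians of the ER and Golgi and of the recycling Rabs were -0.65 and -0.47, and Rab23 turned to 0.030. The offset of 50 is of the order of the arrays' 75th percentile signals, 30.4 to 74.8. Normexp differences and ratios of dim probes such as Rab23 therefore depend on the offset, and no other offset was run. With no filter there were 1 higher and 2 lower Rab genes, 3 and 12 machinery genes, and 850 and 769 over all genes, as dim probes entered the fit. The medians were then -0.13 (ER and Golgi), 0.037 (endosome) and -0.73 (granule). Quantile normalization gave medians of -0.26 (ER and Golgi) and 0.036 (recycling). The percentile over detected probes, which moved the median of all genes by 0.14, gave -0.23, 0.072 and -0.9995 (ER and Golgi, recycling, granule), and equal medians of the tested genes gave 0.016 (recycling). The filter on all 4 arrays gave -0.98 (granule), and the mean of probes -0.98 (granule) and -0.16 (recycling). With an intensity trend and robust variances 8 Rab genes were higher and 20 lower, and 3540 and 3979 over all genes. The deposited log2 values changed no Rab call.

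Leaving out 1 array gave 1 to 5 higher and 3 to 18 lower Rab genes, 2 to 13 higher and 15 to 44 lower machinery genes, and 700 to 2886 higher and 921 to 3563 lower genes overall. The ER and Golgi median ran from -0.52 to -0.25. The low counts came without either non-stem array, where the spread is that of the stem cell pair alone, and the lone array is assumed to vary alike. Rab3d, Rab28 and Rab38 passed under every alternative that kept both arrays of each group, but these alternatives are not separate tests. The deposited values are the same measurements. Averaging probes used no further probe of Rab28 or Rab38 and left both unchanged. Without each array in turn the differences ran from -2.62 to -2.46 for Rab3d, -1.69 to -1.35 for Rab28 and 1.30 to 1.61 for Rab38.

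The replicate numbers were not shown to pair the samples: same-numbered deviations correlated at -0.10 over 17306 genes. With the replicate block 5 Rab genes were higher and 15 lower, and 2376 and 2964 over all genes. The crossed block gave 3 and 16, and 2113 and 2445. For a probe at background throughout a group, the signal there is only an upper limit.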
